A study of Mus musculus with 9 samples.

Results

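The cytosolic ribosomal protein genes were taken by symbol, as genes named Rpl, Rplp, Rps or Rpsa with a number and at most a short suffix, which are proteins of the large or small subunit of the cytosolic ribosome and some of their paralogs. A few others, such as Rpl36al, Rack1 and Fau, carry symbols outside this form and are given apart. Of 22064 genes listed, 84 met this rule, 83 had values and 81 passed the filter on low counts, 32 of the small subunit (Rps and Rpsa) and 49 of the large subunit (Rpl and Rplp). The filter removed Rpl32l and Rpl39l, and Rpl10l was listed without values. The rule reads symbols and no measured value.

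Cytosolic ribosomes translate the mRNAs that come from nuclear genes, and each subunit is assembled in the nucleolus from ribosomal RNA and one copy of most of these proteins. Their mRNAs belong to the TOP class, named for a terminal oligopyrimidine tract, a run of C and T that begins with C at the very start of the transcript. Through this tract the protein Larp1 and the mTOR pathway control their translation together. In the neutrophil lineage, ribosome production is high in dividing bone marrow precursors and is turned down as the cells mature.

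Neutrophils were sorted from lungs of female BALB/c mice as CD45+ cells and measured by bulk RNA-seq in 9 libraries of poly(A)-selected RNA. The Ly6Ghi group (Ly6Ghigh cells, n = 3) and the Ly6Glow group (Ly6Glow cells, n = 3) came from mice at the MACRO stage, when large lung metastases are present, after injection of 4T1-LM3 cells into the mammary fat pad. The NL group (Ly6Ghigh cells, n = 3) came from lungs of mice for which no tumor is named. The 4T1-LM3 cells derive from the mouse mammary carcinoma line 4T1 by in vivo selection for growth in the lung. One field of the NL labels names only the Ly6Ghigh group, so the assignment to NL rests on the title and the treatment field. BALB/c mice were bought at 6 to 8 weeks of age. Their age at sorting, and whether a library holds one mouse or pooled mice, are not given in the sources used here, so p-values measure the spread between these libraries, which may be technical.

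Estimated counts summed to 15267177 to 17841807 per library. Ly6g, whose protein defined the sort, was read in CPM (counts per 1e+06 counted reads, scaled by edgeR's TMM factors). It had 361 to 380 CPM in Ly6Ghi, 385 to 403 CPM in Ly6Glow and 118 to 120 CPM in NL. On this scale its mRNA did not follow the high and low gates. Without the TMM factors, which were lower in Ly6Glow, the order of Ly6Ghi and Ly6Glow is reversed, with Ly6Ghi higher. NL is lowest either way. Summed unscaled CPM of 9 neutrophil markers was 67380 to 68819 in Ly6Ghi, 61497 to 62783 in Ly6Glow and 23829 to 24487 in NL. None of the 9 was at 0 in any group. The 11 alveolar macrophage markers summed to 1511 to 1554 CPM in Ly6Ghi, 288 to 300.0 CPM in Ly6Glow and 2200 to 2255 CPM in NL. The 11 markers of epithelial, endothelial, fibroblast and tumor cells summed to 178 to 187, 166 to 177 and 2110 to 2263 CPM in the same order, and those of 12 T, B and NK cell genes to 85.1 to 86.7, 46.4 to 48.0 and 128 to 132 CPM. No marker of these 3 lists was at 0 in any group. In bulk samples, fewer cells of a type and less RNA per cell cannot be told apart.

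The start of the transcript is the feature that the family is known to share and that the choice of members did not use. RefSeq start windows (build GRCm38.p6) matched 63 of the 83 members with values, in 75 windows, as some genes have several. A run of C followed by 4 bases that are each C or T, in the direction of the transcript and beginning within 3 bases of the annotated start, was present in 36.0% of the members' windows and in 11.5% of all 32841 windows. With the C exactly at the annotated start, the shares were 18.7% and 2.5%. The following windows run from 10 bases before the annotated start to 20 bases from it, and capitals mark the run. They are shown for members with large or opposite differences between groups, and the last pair holds no such run near the start.
Rps9, chr7:3704031-3704060, plus strand: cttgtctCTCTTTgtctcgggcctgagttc
Rps27, chr3:90213629-90213658, minus strand: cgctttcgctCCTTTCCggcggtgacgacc
Rps18, chr17:33955646-33955675, minus strand: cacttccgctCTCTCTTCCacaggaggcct
Rpl14, chr9:120571507-120571536, plus strand: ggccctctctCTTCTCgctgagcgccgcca
Rpl12, chr2:32961702-32961731, plus strand: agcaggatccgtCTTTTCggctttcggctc
Rplp0, chr5:115559457-115559486, plus strand: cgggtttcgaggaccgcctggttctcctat
Rpsa, chr9:120127756-120127785, plus strand: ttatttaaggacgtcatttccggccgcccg
In Ly6Glow over Ly6Ghi, the median log2 fold change was -0.51 over 25 tested members with a run and -0.48 over 36 with a window and no run. For Ly6Ghi over NL the medians were 0.54 and 0.43, and for Ly6Glow over NL they were -0.12 and 0.06. An annotated start can lie some bases from the start that a cell uses, so absence of a run describes these windows only.

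The family as a whole had a lower summed level in Ly6Glow than in Ly6Ghi on every scale used. Its summed share of all estimated counts was 1.30%, 1.29% and 1.28% in the Ly6Ghi libraries, 0.822%, 0.837% and 0.801% in the Ly6Glow libraries and 1.27%, 1.20% and 1.24% in the NL libraries. The group means were 1.29% ± 0.0076 (SD, n = 3), 0.820% ± 0.018 (SD, n = 3) and 1.23% ± 0.0342 (SD, n = 3). No Ly6Glow library came near the other groups, while Ly6Ghi and NL differed by little. As a share of all FPKM, which divides counts by transcript length, the members held 3.18%, 3.17% and 3.14% in Ly6Ghi, 2.16%, 2.18% and 2.11% in Ly6Glow and 3.96%, 3.76% and 3.86% in NL. On this scale NL stood above Ly6Ghi. With TMM scaling, the members summed to 13485 to 13716 CPM in Ly6Ghi, 9945 to 10431 CPM in Ly6Glow and 9068 to 9776 CPM in NL, and here Ly6Ghi stood highest. The order of Ly6Ghi and NL therefore depended on the scale, and so did that of Ly6Glow and NL, whereas Ly6Glow lay below Ly6Ghi on all 3 scales.

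**Figure D1:**
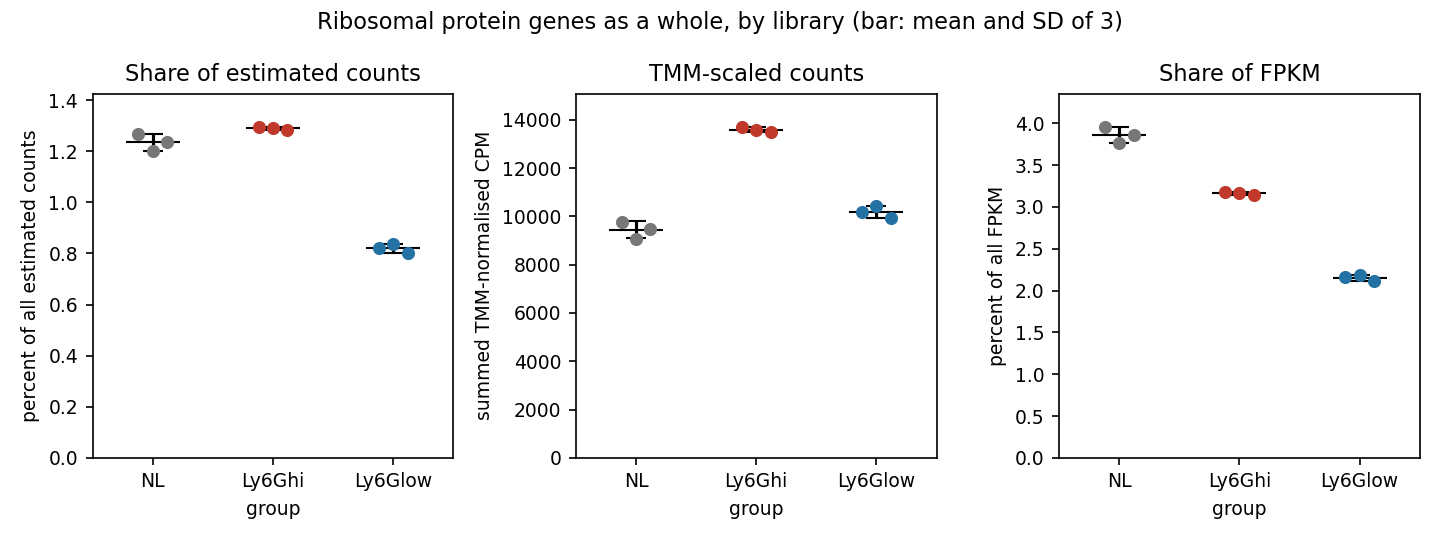
Summed level of the ribosomal protein genes in each library, as the percent of all estimated counts, as summed TMM-normalised CPM and as the percent of all FPKM, by group (points, libraries; bars, mean and SD of 3). Ly6Glow lies below Ly6Ghi in each panel, while NL moves from the lowest group on the TMM scale (9068 to 9776 CPM) to the highest on the FPKM scale (3.76% to 3.96%).

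The libraries also differed in composition. TMM factors, which reset each library so that most genes do not differ, were 0.945 to 0.950 in Ly6Ghi, 0.803 to 0.807 in Ly6Glow and 1.30 to 1.32 in NL. The 10 most abundant genes outside the family, led by S100a9 and S100a8, held a mean of 11.1% of the counts in Ly6Ghi, 9.14% in Ly6Glow and 5.85% in NL. Without TMM factors, the median log2 fold change of all tested genes moved from -0.04 to -0.28 in Ly6Glow over Ly6Ghi, from -0.09 to -0.55 in Ly6Ghi over NL and from -0.16 to -0.86 in Ly6Glow over NL. A difference between one member and another, or between a member and the median gene, depends little on this choice.

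Levels within the family covered a wide range. FPKM divides counts by the length used for each gene. On this scale the median member had 196 to 200.0 FPKM in Ly6Ghi, 115 to 119 FPKM in Ly6Glow and 210 to 222 FPKM in NL. The length that FPKM and counts imply was 5087 bases for Rps15a and 3397 for Rps20, against a median of 678 over the tested members. Ranks by FPKM depend on these lengths. Rpsa, at 1812 bases, had a mean of 633 TMM-scaled CPM in Ly6Ghi but ranked 23 by mean FPKM over the 9 libraries. Rps9 (NCBI Gene 76846), a protein of the small subunit body, was the most abundant member in all 9 libraries. It had 1376, 1333 and 1357 FPKM in Ly6Ghi, 1237, 1284 and 1244 FPKM in Ly6Glow and 753, 707 and 745 FPKM in NL. The Ly6Ghi libraries were highest, the Ly6Glow libraries just below them and the NL libraries far lower, with no overlap. Of the family's FPKM, Rps9 held 7.50% ± 0.094 (SD, n = 3) in Ly6Ghi, 10.8% ± 0.162 in Ly6Glow and 4.29% ± 0.048 in NL. By mean FPKM over the 9 libraries, Rps9 was followed by Rplp0, which anchors the ribosomal stalk, Rpl23a at the mouth of the exit tunnel, Rpl10, which is added late to the large subunit, Rpl41, a very short peptide, Rps27a, made as a fusion with ubiquitin, Rps27, Rps2, Rps12 and Rps23, a protein of the decoding center. The order differed by group, since in NL the means of Rpl10 (516 FPKM), Rps2 (466 FPKM), Rpl23a (389 FPKM) and Rplp1 (360 FPKM) lay above that of Rplp0 (352 FPKM). These 10 genes held 28.7% to 29.0% of the family's FPKM in Ly6Ghi, 34.0% to 34.2% in Ly6Glow and 23.4% to 23.7% in NL, so the Ly6Glow libraries were the most uneven.

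At the low end, Rps6 (NCBI Gene 20104), the small subunit protein phosphorylated downstream of mTOR, had 2.01, 1.65 and 2.34 FPKM in Ly6Ghi, 1.48, 1.68 and 1.70 FPKM in Ly6Glow and 3.13, 2.69 and 2.34 FPKM in NL. Its estimated counts were 30.3 to 72.2 per library. Rps6 is a core subunit of every ribosome, and its listed level lies far below the median member in all 9 libraries. Many ribosomal protein genes have processed pseudogene copies, and the GENCODE annotation of this build names 300, for 60 of the 83 members. How reads that match several copies were counted is not given in the sources used here, so levels of single members, and above all of Rps6, are uncertain. The summed levels of the family leave out separately listed copies and carry the same uncertainty. As an example, Rpl31 had 211 to 535 estimated counts per library, and the separately listed copy Rpl31-ps12 had 840.0 to 1793. In Ly6Glow over Ly6Ghi both were lower, with log2 fold changes of -0.73 for Rpl31 and -0.59 for Rpl31-ps12.

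**Figure D2:**
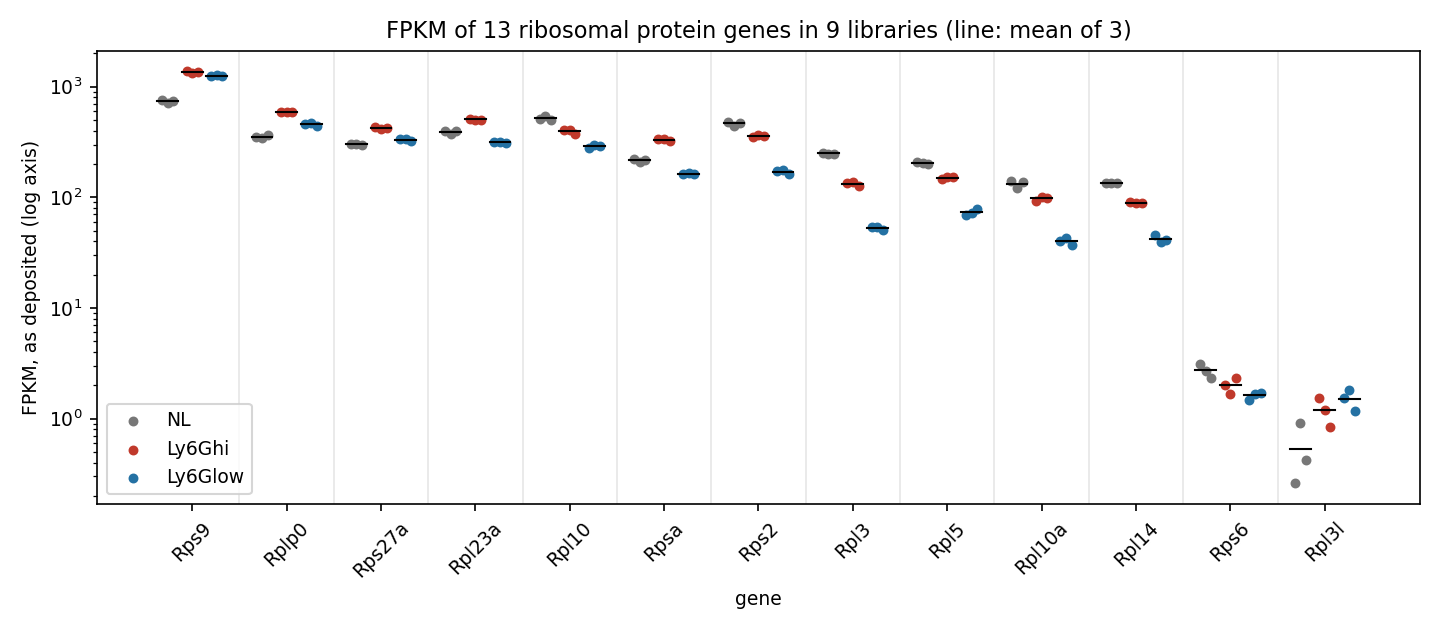
FPKM as deposited (log axis) of 13 ribosomal protein genes in the 9 libraries, by group (points, libraries; lines, mean of 3). Rps9 stands highest with 707 to 1376 FPKM, Rpl3 has its highest values in NL and its lowest in Ly6Glow, and Rps6 and Rpl3l lie between 0.26 and 3.13 FPKM.

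Ly6Glow was compared with Ly6Ghi to ask how the 2 gates of the metastatic lung differ. Calls required a Benjamini-Hochberg adjusted p no larger than 0.05 in edgeR's quasi-likelihood test together with a log2 fold change beyond 0.58 in either direction. Of the 81 tested members, 33 (40.7%) fell in Ly6Glow, against 15.9% of all 14108 genes tested, and 1 (1.23%) rose, against 9.29% of all genes. The members' median log2 fold change was -0.49 and that of all genes was -0.04. The difference was below 0 in 78 of 81 members, and 75 passed the adjusted p in that direction. Among small subunit genes 12 of 32 fell, with a median of -0.42, and among large subunit genes 21 of 49 fell, with a median of -0.52. On the TMM scale 2 members passed the adjusted p upward, Rpl3l and Rps9. Without TMM factors 58 members were called lower, against 26.4% of all genes, and 0 higher, against 4.04%. DESeq2 called 24 lower, against 12.7% of all genes, and 0 higher, against 10.7%. The median of the members lay 0.45 (log2) below that of all genes with and without TMM factors.

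Among the lowest members were Rpl3, Rpl10a, Rpl32 and Rps18. Rpl3 (NCBI Gene 27367), which lies beside the peptidyl transferase center, had 187, 192 and 177 TMM-scaled CPM in Ly6Ghi and 89.4, 88.6 and 83.0 CPM in Ly6Glow. The Ly6Ghi and Ly6Glow libraries did not overlap, and the gap was many times the spread within either group. The fitted log2 difference was -1.09 (standard error 0.0434, edgeR adjusted p = 4.13e-15), which is 2.13-fold lower. Rpl10a fell by 1.05 on the log2 scale, Rpl32 by 0.95 and Rps18 by 0.93. Among the most abundant members, Rps2, which lines the mRNA entry channel, had 356, 365 and 361 CPM in Ly6Ghi and 202, 208 and 190 CPM in Ly6Glow. These groups were well apart, differing by -0.85 on the log2 scale (standard error 0.0417, edgeR adjusted p = 1.34e-13). Rpsa, a small subunit protein also known as the laminin receptor, had 646, 641 and 612 CPM in Ly6Ghi and 368, 376 and 362 CPM in Ly6Glow, and the fitted log2 difference was -0.78 (standard error 0.0349, edgeR adjusted p = 3.08e-14).

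At the other end stood Rpl3l, Rps9, Rps27, Rps6 and Rps27a. Rps9 had 952, 918 and 934 TMM-scaled CPM in Ly6Ghi and 1003, 1046 and 1010 CPM in Ly6Glow, so that its Ly6Glow libraries were slightly higher on this scale. The fitted log2 difference was 0.13 (standard error 0.0334, edgeR adjusted p = 0.00293), short of the fold threshold, and without TMM factors it was -0.11. Rps27 had a log2 fold change of 0.08 with TMM and -0.16 without it, and its libraries overlapped. Rps6 had -0.09, Rps27a -0.10 and Rplp0 -0.13, none of them past the threshold. Rpl3l (NCBI Gene 66211), a paralog of Rpl3 known from heart and skeletal muscle, was the one member called higher. It had 1.72, 1.54 and 1.11 CPM in Ly6Ghi and 2.11, 3.01 and 1.91 CPM in Ly6Glow, from 17.7 to 39.9 estimated counts a library. The fitted log2 difference was 0.68 (standard error 0.260, edgeR adjusted p = 0.0303), its FPKM overlapped between the groups, and the call was lost without any one of Ly6Ghi replicate 2, Ly6Ghi replicate 3 and Ly6Glow replicate 2, without TMM factors and with DESeq2.

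The ratio of 2 members within a library does not depend on any scaling between libraries. Rps9 and Rpl3, chosen after their values were seen, gave the ratio of their FPKM as 10.3, 9.65 and 10.7 in Ly6Ghi, 22.9, 23.9 and 24.7 in Ly6Glow and 2.97, 2.87 and 2.99 in NL. The 3 groups stood apart with no overlap, so the relative levels of these members differed between all 3 groups. This ratio describes their unequal difference and not the level of either one.

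**Figure D3:**
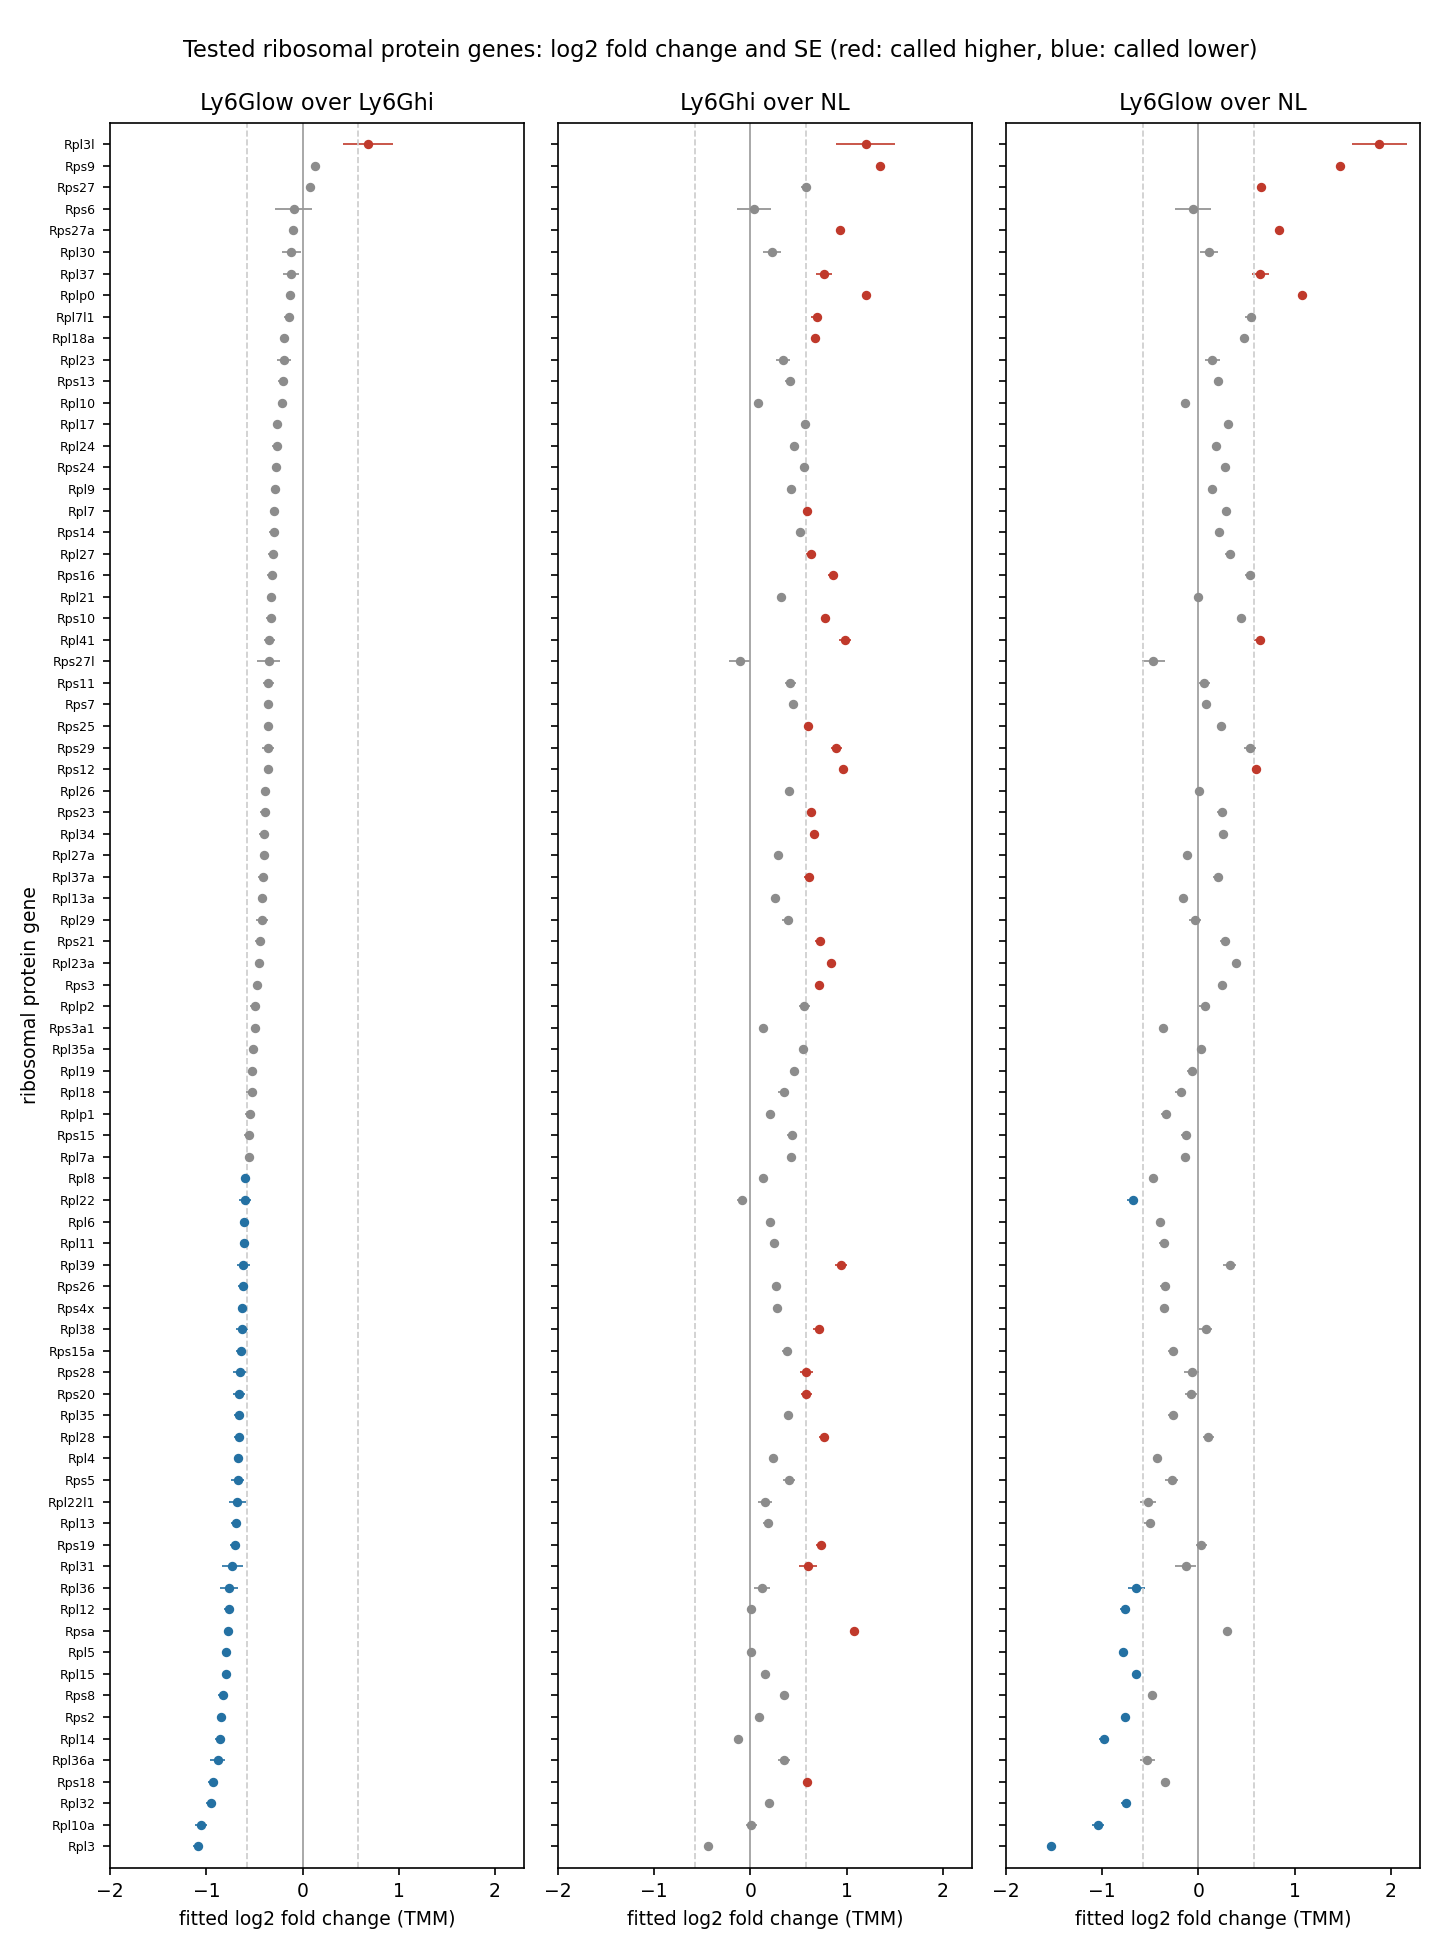
Fitted log2 fold change on the TMM scale (points) with SE (bars) of 80 of the 81 tested ribosomal protein genes in the 3 comparisons, sorted by Ly6Glow over Ly6Ghi (red, called higher; blue, called lower; dashed lines at the fold threshold of 0.58). Nearly all points lie below 0 in Ly6Glow over Ly6Ghi and above 0 in Ly6Ghi over NL.

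Parts of the ribosome that work together moved as follows in Ly6Glow over Ly6Ghi. Rpl5 and Rpl11, which bind 5S ribosomal RNA and, when free, hold the p53 regulator Mdm2, both fell. Rpl5 had 167, 171 and 169 TMM-scaled CPM in Ly6Ghi and 91.5, 96.6 and 105 CPM in Ly6Glow, and the fitted log2 difference was -0.79 (standard error 0.0441, edgeR adjusted p = 1.23e-12). Rpl11 had a fitted log2 difference of -0.60 (standard error 0.0467, edgeR adjusted p = 3.03e-10), just past the threshold, and its call was lost with DESeq2, with DESeq2's size factors and when centred on the median of all genes. Of the 4 genes of the stalk, which recruits elongation factors, Rpl12 alone was called, with -0.77 (standard error 0.0505, edgeR adjusted p = 2.04e-11). The other stalk genes had -0.13 (Rplp0), -0.54 (Rplp1) and -0.49 (Rplp2). At the rim of the exit tunnel 5 of 9 genes fell, with a median of -0.60, and in the head of the small subunit 6 of 14 fell, with a median of -0.51, against 15.9% of all genes. Without TMM factors 8 of the 9 and 11 of the 14 were called lower, against 26.4% of all genes.

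Paralogs were set beside the genes they resemble. Rpl22, which binds RNA outside the ribosome as well, and its paralog Rpl22l1 both fell, with log2 fold changes of -0.60 and -0.68, and the FPKM ratio of Rpl22 to Rpl22l1 was 0.401 to 0.454 in Ly6Ghi and 0.407 to 0.494 in Ly6Glow. Rps27 and Rps27l, a gene induced by p53, had 0.08 and -0.35, neither called. Rpl7 and Rpl7l1 had -0.30 and -0.14, also not called. Rpl39, a short protein inside the exit tunnel, fell with -0.62 (standard error 0.0655, edgeR adjusted p = 4.69e-08), and its paralog Rpl39l, known from testis, had 0 to 2 estimated counts in every library. Rpl32l had at most 1.69 estimated counts. Rps4x, the X-linked small subunit gene, fell with -0.63, while Rpl10 had -0.22 and was not called. The calls of Rpl39, Rpl22 and Rps4x were lost with DESeq2 and with DESeq2's size factors, those of Rpl39 and Rpl22 also when centred or without Ly6Ghi replicate 1, and that of Rpl22 also without Ly6Glow replicate 3. Rpl10l and Rps4l were not analysed here.

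Transcript length was checked because the members are short. The length that FPKM and counts imply was 273 to 5087 bases for the tested members, with a median of 678, against 2921 over all tested genes. It stayed within 5% across the 9 libraries for 80 of 81 members, the exception being Rpl3l. In a comparison of groups the length used therefore cancels within a gene, and FPKM fold changes nearly equal those of counts without TMM factors. A fit on FPKM thus repeats that count fit, and it cannot show whether libraries differed in their recovery of short transcripts. On log2(FPKM + 1) with limma, 57 members were called lower in Ly6Glow than in Ly6Ghi, against 13.6% of all genes, and 0 higher, against 2.27%. Of 810 other genes no longer than 960 bases, the upper quartile of the members, 22.1% were called lower in Ly6Glow, and their median log2 fold change was -0.25. The difference lay below 0 in 66.3% of these genes and in 96.3% of the members. At the median, short genes outside the family were thus below 0 as well, and by less than the members. Over the 81 members, Spearman's rho of the log2 fold change with length was 0.057, a description across genes that share the same libraries.

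**Figure D4:**
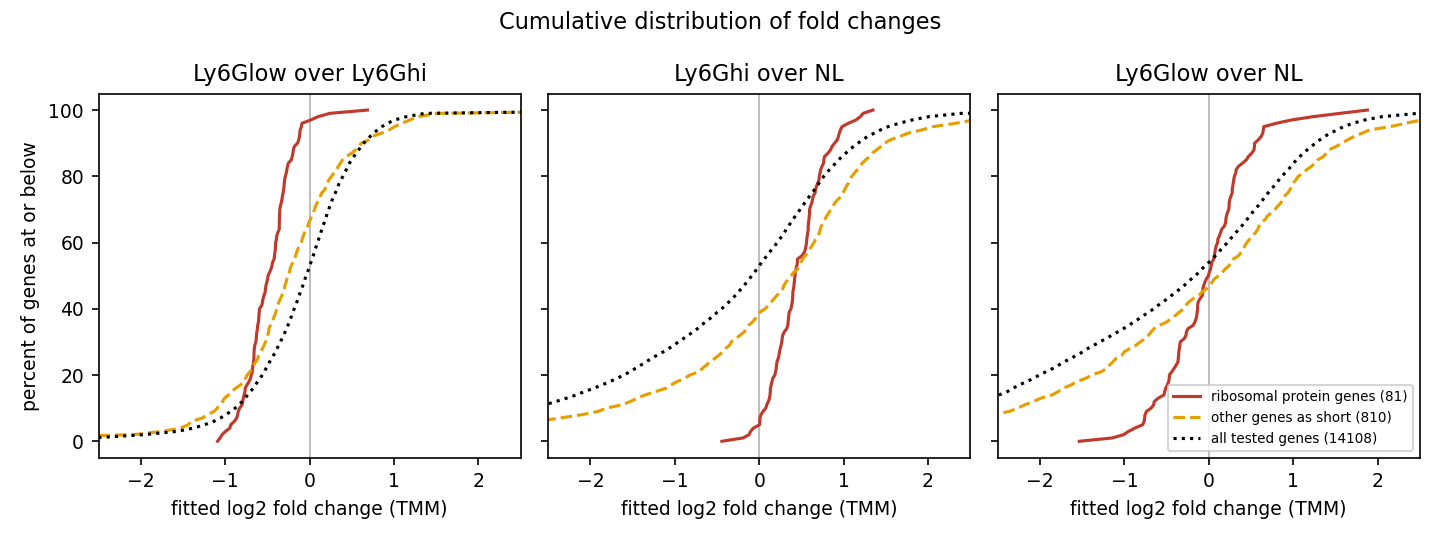
Cumulative distribution of fitted log2 fold changes on the TMM scale for the 81 ribosomal protein genes, 810 other genes no longer than 960 bases and all 14108 tested genes, in the 3 comparisons (vertical axis, percent of genes at or below the value). The members' median lies at -0.49 in Ly6Glow over Ly6Ghi, left of the other short genes (-0.25), and at 0.42 in Ly6Ghi over NL, close to the other short genes (0.38).

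Ly6Ghi was compared with NL to ask what differs between Ly6Ghigh neutrophils of metastatic and normal lung. On the TMM scale 30 of the 81 members (37.0%) were called higher in Ly6Ghi, against 26.3% of all genes, and 0 lower, against 36.6%. With an unadjusted p and the same fold threshold the count of lower members was also 0. DESeq2 called 33 higher, against 26.9% of all genes, and 0 lower, against 35.1%. The median was 0.42, against -0.09 over all genes, and 77 of 81 members lay above 0. The direction did not hold on the other scales. Without TMM factors the median was -0.04, with 36 members above 0 and 45 below, and the calls were 4 higher, against 12.3% of all genes, and 2 lower, against 48.5%. With FPKM rescaled to the same sum in each library, limma called 0 members higher, against 5.43% of all genes, and 23 lower, against 54.4%. Relative to the median of all tested genes, the members stood 0.51 (log2) higher with and without TMM factors. With at least 10 counts in every library this was 0.28, and with limma on log2(FPKM + 1) it was 0.28, or 0.29 with FPKM of at least 1 and 0.27 with FPKM rescaled. Other genes as short as the members stood nearly as high, with a median of 0.38 and 41.9% called higher on the TMM scale. The summed markers of epithelial, endothelial, fibroblast and tumor cells were at least 2110 CPM in each NL library and at most 187 CPM in each Ly6Ghi library, and their part in these differences was not tested.

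Members that were higher in Ly6Ghi on both scales led the list, and Rps9 came first. It had 952, 918 and 934 TMM-scaled CPM in Ly6Ghi and 380, 349 and 373 CPM in NL, and its groups were far apart. The fitted log2 difference was 1.35 (standard error 0.0342, edgeR adjusted p = 1.86e-19), and 0.88 without TMM factors. Rplp0 (NCBI Gene 11837) had 815, 813 and 808 CPM in Ly6Ghi and 357, 337 and 364 CPM in NL, with log2 fold changes of 1.20 (standard error 0.0341, edgeR adjusted p = 1.29e-18) and 0.74. It thus stood apart from the other stalk genes, as the FPKM ratio of Rplp0 to Rplp1 was 1.95 ± 0.032 (SD, n = 3) in Ly6Ghi, 2.61 ± 0.12 in Ly6Glow and 0.983 ± 0.0872 in NL. Rpsa had log2 fold changes of 1.07 with TMM factors and 0.61 without, and Rpl3l had 1.20 and 0.73. Rpl3l rested on 9.34 to 27.95 estimated counts a library in these 2 groups. Its FPKM overlapped, with 0.83 to 1.53 in Ly6Ghi and 0.26 to 0.91 in NL, and its call was lost with limma on log2(FPKM + 1). Without TMM factors, the 4 members called higher were Rps9, Rplp0, Rpsa and Rpl3l. The other members named for their level or part had smaller values without TMM factors: Rpl41 had 0.98 with and 0.52 without, Rps12 0.96 and 0.49, Rpl39 0.94 and 0.48, Rps27a 0.93 and 0.47, and Rpl23a 0.84 and 0.38. Rps19, mutated in Diamond-Blackfan anemia, had 0.73 and 0.27, Rps3, which lines the mRNA entry channel, 0.71 and 0.25, Rpl7l1 0.69 and 0.22, Rps23 0.63 and 0.17, and Rps18 and Rpl7 0.59 with and 0.13 and 0.12 without.

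Rpl3 was lowest in this comparison as well. It had 259, 245 and 251 TMM-scaled CPM in NL against 177 to 192 CPM in Ly6Ghi, with no overlap. The fitted log2 difference was -0.44 (standard error 0.0385, edgeR adjusted p = 5.64e-10), under the fold threshold, and -0.91 without TMM factors. Next came Rpl14 with -0.13, Rps27l with -0.11, Rpl22 with -0.09 and Rpl12 with 0.01, none of them called. Without TMM factors these 4 had values from -0.60 to -0.46. Among the parts of the ribosome, 11 of 14 genes of the small subunit head, 4 of 9 of the exit tunnel rim, 1 of 4 of the stalk (Rplp0) and 0 of 2 of the 5S particle were called higher on the TMM scale, against 26.3% of all genes, and 0, 0, 1 and 0 without TMM factors, against 12.3%. In the whole small subunit 15 of 32 members were called higher, with a median of 0.56, and in the large subunit 15 of 49 (30.6%), near the share of all genes, with a median of 0.39.

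Ly6Glow differed from NL in both directions on the TMM scale. Of the members, 8 (9.88%) were called higher, against 28.7% of all genes, and 11 (13.6%) lower, against 40.8%. Both shares lay under those of all genes. The median was -0.0035, with 40 members above 0 and 41 below, against -0.16 over all genes. The 8 higher members were Rpl3l, Rps9, Rplp0, Rps27a, Rps27, Rpl37, Rpl41 and Rps12, and the 11 lower included Rpl3, Rpl10a, Rpl14, Rpl5, Rpl12, Rps2, Rpl32, Rpl22, Rpl36 and Rpl15. Without TMM factors 2 were called higher, against 9.43% of all genes, and 50 lower, against 56.7%, and 77 of 81 lay below 0. Without NL replicate 2, 5 members were called higher on the TMM scale.

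Of the 8 members called higher, 4 changed sign without TMM factors, namely Rps27, Rpl37 (0.64 and -0.056), Rpl41 (0.64 and -0.064) and Rps12 (0.60 and -0.10). Rps9 was at 1.47 (standard error 0.0343, edgeR adjusted p = 3.51e-20) with TMM factors and 0.77 without, and Rpl3 was at -1.53 (standard error 0.0423, edgeR adjusted p = 6.41e-19) and -2.23. Rplp0 had 1.08 and 0.37, Rps27a had 0.84 and 0.13, and Rps27 had 0.65 and -0.05. Rpl10a had -1.05 and -1.75, Rpl14 had -0.98 and -1.69, and Rpl5 had -0.78 and -1.48. Rpl3l had 1.88 (standard error 0.288, edgeR adjusted p = 3.29e-06) and 1.18, at 0.404 to 0.821 CPM in the NL libraries.

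Other genes of the same machinery were read from lists. Of the ribosomal protein genes that the symbol rule leaves out, 4 were tested. Of these, 2 of 4 fell in Ly6Glow over Ly6Ghi, against 15.9% of all genes. They were Rack1, a scaffold on the small subunit, with -0.68 and Rpl36al with -1.05. Fau, which encodes a ribosomal protein fused to a ubiquitin-like protein, had 0.18 on the TMM scale and was not called. This is less than the shift of the median gene without TMM factors, from -0.04 to -0.28, so its sign depends on the scale. Against NL, Fau in Ly6Ghi had 1.04 and was called higher, with 0.57 without TMM factors. Rps27rt was not tested. Of 16 translation factors and related genes with TOP mRNAs, 3 fell in Ly6Glow over Ly6Ghi, near the 15.9% of all genes, and 0 rose, with a median of -0.32. Relative to the median of all genes this was -0.28. Without TMM factors 7 of the 16 were called lower in Ly6Glow, against 26.4% of all genes, and 0 higher, against 4.04%. Against NL, 3 of the 16 were called higher in Ly6Ghi, Eif3h with 0.80, Btf3 with 0.76 and Tpt1 with 0.62, against 26.3% of all genes. Without TMM factors 0 were called higher, against 12.3% of all genes, and 6 lower, against 48.5%. Pabpc1, the poly(A)-binding protein, had 0.52 and was not called.

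Of 78 mitochondrial ribosomal protein genes, which serve the separate ribosome of mitochondria, 29 fell in Ly6Glow over Ly6Ghi, against 15.9% of all genes, and 0 rose, with a median of -0.47, close to that of the cytosolic members. In Ly6Ghi over NL 19 were called higher, near the 26.3% of all genes, and 15 lower, against 36.6%. Without TMM factors 5 were called higher, against 12.3% of all genes, and 33 lower, against 48.5%. Of 20 genes that control translation, 2 rose and 3 fell in Ly6Glow over Ly6Ghi, near the 9.29% and 15.9% of all genes, with a median of -0.07. Mlst8, a subunit of the mTOR complexes, fell with -2.10, and Myc, a transcription factor that drives ribosomal protein genes, fell with -0.79. Values of the 2 genes that rose are not reported here, so these examples do not stand for the list. Against NL, 8 were called higher and 3 lower in Ly6Ghi on the TMM scale, and 3 and 5 without TMM factors, beside 26.3% and 36.6%, and 12.3% and 48.5%, of all genes. Eif4ebp1, which holds back the cap-binding protein Eif4e, had 2.08 with and 1.62 without TMM factors. Mlst8 had 1.57 and 1.11, Max, the partner of Myc, had 1.23 and 0.77, and Myc had -1.35 and -1.82.

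Several marker lists also differed between the groups. The name of a list does not rank the groups by maturity. The paper describes Ly6Glow neutrophils as relatively immature by nuclear shape and reports higher Cxcr2 in Ly6Ghigh neutrophils. It counts Cramp, which Camp encodes, among mature-associated markers. The 9 granule genes of immature neutrophils with values, among them Ltf, Camp and Ngp, summed to 32694 to 33198 unscaled CPM in Ly6Ghi, 10155 to 10524 CPM in Ly6Glow and 7083 to 7343 CPM in NL, and 8 of 9 fell in Ly6Glow over Ly6Ghi, against 15.9% of all genes. In Ly6Glow over NL 8 of the 9 were called higher, against 28.7% of all genes. Their median was 1.64, where the members' median was -0.0035. Without TMM factors 5 were called higher, against 9.43% of all genes, and 1 lower, against 56.7%. Their median was then 0.94 and that of the members -0.70. In Ly6Glow over Ly6Ghi, 8 of 11 alveolar macrophage markers, 8 of 12 T, B and NK cell markers and 8 of 8 tested basophil, mast cell and eosinophil markers fell as well. The last list summed to 70.7 to 77.1 CPM in Ly6Ghi, 16.3 to 19.4 CPM in Ly6Glow and 7.34 to 9.05 CPM in NL. In Ly6Ghi over NL 8 of its 8 tested genes were called higher, against 26.3% of all genes. No gene of these lists was at 0 in any group. Their part in the difference of the ribosomal protein genes was not tested.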

How the data were processed

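Neutrophils of 9 libraries in 3 groups were measured by poly(A)-selected bulk RNA-seq. The authors deposited an estimated count per gene and library, not normalized, 37.9% of them whole, and rounding to whole counts preceded each count test. The deposited FPKM values are, by the authors, scaled for transcript length and sequencing depth. Submitters' notes name build mm10, and aligner and counter are not given in the sources used here. All columns were used. Of 22064 genes, 3739 were blank and 14108 were tested after filterByExpr by group.

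Counts were fitted in R 4.3.3 with edgeR 4.0.16 (TMM, quasi-likelihood F test, one model of 9 libraries, Benjamini-Hochberg over all tested genes). An SE is the log2 fold change divided by the square root of F. With 3 libraries a group, an exact permutation test cannot go below 0.1, so single-gene p-values come from this model. The biological coefficient of variation was 0.0346. Alternatives used DESeq2 1.42.0, limma 3.58.1 on log2(FPKM + 1) or log2(FPKM + 0.1), other scalings, filters and thresholds, a replicate block and each replicate left out. Scripts were tested on simulated data. Intervals are not given, and errors cover these libraries only.

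Named were the 10 most abundant members by FPKM, the 5 highest and 5 lowest log2 fold changes per comparison, members removed by the filter, and hand-written lists (paralogs and their parents, stalk, 5S particle, members fixed by hand), with at most 4 examples from each list outside the family, those with the largest differences in Ly6Ghi over NL. Rack1, Rpl36al, Rpl31, Rpl31-ps12, Rpl37, Rpl36 and Rpl15 were named after their values were seen. Of a list of 7 snoRNA host genes, none had values here, and they were not analysed here. Values of some single genes are not reported here. Members and lists were chosen with earlier results of these data known.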

Additional observations from a re-analysis of the deposited data

How the results depend on the processing

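Counts of called members moved with scaling, threshold and unit, and so did the shares of all genes called. In Ly6Glow over Ly6Ghi, 12.7% of all genes were called lower with DESeq2 and 26.4% with library size alone. With library size alone, 48.5% were lower in Ly6Ghi over NL and 56.7% in Ly6Glow over NL. With no fold threshold, 4182 of 14108 genes passed lower in Ly6Glow over Ly6Ghi. In Ly6Ghi over NL 5629 passed higher, and in Ly6Glow over NL 5591 passed higher and 6655 lower. In Ly6Glow over Ly6Ghi, the 1 member called higher became 0 with DESeq2, with at least 10 counts in every library, with a threshold of 1, with each of the 4 limma fits on FPKM and with library size alone, 2 with no fold threshold, and 0 to 1 with a replicate left out. The 33 called lower became 24 with DESeq2 and with DESeq2's size factors (9 calls lost), 27 when centred, 44 with FPKM rescaled, 75 with no fold threshold, 3 with a threshold of 1, 57, 58 and 57 with limma on log2(FPKM + 1), on log2(FPKM + 0.1) and with FPKM of at least 1, 58 with library size alone, and 29 to 35 with a replicate left out. In Ly6Ghi over NL, the 30 called higher became 12 with upper-quartile factors, 13 with at least 10 counts, 70 with no fold threshold, 4 with a threshold of 1, 3, 4, 3 and 0 with the 4 limma fits (FPKM rescaled last), 4 with library size alone, and 24 to 33 with a replicate left out. The 0 called lower became 1 with upper-quartile factors, no filter or at least 10 counts, 2 with no fold threshold, 2, 3, 2 and 23 with limma, and 2 with library size alone. It was 0 with each replicate left out. In Ly6Glow over NL, the 8 called higher became 4, 3, 31 and 3 with upper-quartile factors, at least 10 counts, no fold threshold and a threshold of 1, 2, 2, 2 and 1 with limma, 2 with library size alone, 13 when centred on the median of all genes, and 5 (without NL replicate 2) to 9 with a replicate left out. The 11 called lower became 19, 19, 34 and 2 in the same order, 48, 49, 48 and 68 with limma, 50 with library size alone, and 10 to 11 with a replicate left out.

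Mean shares of counts (NL, Ly6Ghi, Ly6Glow) were 3.86%, 3.16% and 2.15% as FPKM, 1.07%, 1.05% and 0.628% without the 5 most abundant members, and 1.31%, 1.45% and 0.903% without the 10 most abundant other genes.

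Some differences changed sign. In Ly6Glow over Ly6Ghi, Rps27 was -0.15, -0.16, -0.15 and -0.070 with limma and -0.16 with library size alone, Rps9 was -0.11, -0.11, -0.11 and -0.025 with limma and -0.11 with library size alone, and Rps6 ranged from -0.21 to 0.030 with a replicate left out, above 0 only without Ly6Ghi replicate 3. In Ly6Ghi over NL, the members' median was -0.040, -0.040, -0.040 and -0.41 with limma and -0.040 with library size alone, Rpl22 was 0.0017 when centred, and Rpl12 was -0.19 with upper-quartile factors, -0.17 with at least 10 counts, -0.46, -0.46, -0.46 and -0.82 with limma, -0.033 to 0.036 with a replicate left out (below 0 without Ly6Ghi replicate 2 or NL replicate 2), and -0.46 with library size alone. In Ly6Glow over NL, the members' median, near 0 in the fit reported, was 0.087 with DESeq2's size factors and with DESeq2, 0.00024 with TMM factors without the members, 7.17e-06 with 6 libraries, -0.030 to 0.020 with a replicate left out (above 0 without Ly6Ghi replicate 1, Ly6Ghi replicate 3, Ly6Glow replicate 3 or NL replicate 1), and 0.15 when centred. The median less that of all genes was -0.14 with at least 10 counts and -0.20, -0.12 and -0.15 with limma at a pseudocount of 1, with FPKM of at least 1 and rescaled. Rps27 was -0.048, -0.048, -0.048 and -0.33 with limma and -0.049 with library size alone, and Rps27a was -0.15 with FPKM rescaled. The cause of these shifts was not tested. Library size alone and centring were chosen after seeing the data.

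Replicate numbers are shared between groups by number only. Same-numbered libraries did not deviate together (correlations from -0.068 to 0.077), and a replicate block left the counts at 1 and 33, 30 and 0, and 8 and 11. Rps6 and Rpl3l had few counts. In Ly6Glow over Ly6Ghi their standard errors were 0.193 and 0.260, against a median of 0.0484 over the members. The reason for their low counts was not tested.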
